A study of Mus musculus with 2 samples.

Results

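The solute carrier (Slc) genes are a large group of membrane transporter genes that share a naming scheme. Chosen here were the protein-coding genes whose name is Slc followed by a digit and that had at least 3 reads in each of 2 long-read RNA libraries of mouse adrenal gland; Slc18a1, Slc18a2 and Slc6a2 were left out by name. This gave 179 genes, of 10561 annotated and 10125 protein-coding genes that reached the same minimum. The mice were males, 2 months old, of B6CASTF1/J, whose cells hold one C57BL/6 and one CAST genome, and both libraries form 1 group with no treatment named. They are called replicate 2 and replicate 1, as in the labels. Animal 4 is named on the biosample of replicate 2 and animal 3 on that of replicate 1, while the library descriptions give 3 for both, so p-values between the libraries measure only the difference between these libraries, which may be technical.

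Solute carriers move ions, sugars, amino acids, lipids, vitamins, metals and nucleotides across membranes by exchange, by cotransport with ions or down a gradient. The family number in the name, such as 25 in Slc25a3, stands for a group of related sequence, and many families share a substrate class. Those of the Slc25 family sit mostly in the inner mitochondrial membrane, which matters in the adrenal cortex because steroid synthesis starts and ends in mitochondria. A few genes carry the name without being carriers: Slc3a2 encodes the heavy subunit of amino acid exchangers, Slc9a3r1 and Slc9a3r2 encode scaffold proteins, and Slc4a1ap and Slc7a6os are named for a partner or neighbour.

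The annotation of the libraries lists 371 protein-coding genes of the name pattern. Reads were found for 245 of them in either library, 126 had 0 reads in both, and 63 had reads below the minimum. Just inside the minimum were 8 genes with 3 reads in the lower library, among them Slc28a2 with 3 reads in replicate 2 and 4 in replicate 1. Just outside were 9 genes with 2 reads in the lower library, among them Slc12a5 with 2 reads in replicate 2 and 5 in replicate 1. Of those left out, Slc18a2, a vesicular monoamine transporter, had 25 reads in replicate 2 and 39 in replicate 1. Slc18a1 had 21 and 22 reads, and Slc6a2, the noradrenaline transporter, had 5 and 8 reads in the same order. Since the genes were chosen on their reads, their levels are given as a description.

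Levels are counts scaled to equal library size (CPM, where M stands for 1e+06 reads). The reads assigned to genes, without spike-ins, were 656786 for replicate 2 and 824186 for replicate 1. A count of 0 allows up to 3 reads, which is 4.57 CPM in replicate 2 and 3.64 CPM in replicate 1, and this limit covers counting error only. A long read is counted once whatever its length, so CPM was not divided by transcript length. How evenly reads stand for RNA molecules was not tested. The same value per kb of transcript is given where genes are ordered by level. The 5 marker genes of adrenal cortex summed to 67741 CPM in replicate 2 and 64708 CPM in replicate 1, and the 5 of chromaffin cells to 12409 and 11251 CPM. Markers of fat cells summed to 10229 CPM in replicate 2 and 18277 CPM in replicate 1, and those of erythroid cells to 819 and 1955 CPM. All 8 fat markers and all 5 erythroid markers were lower in replicate 2. Kidney markers summed to 9.14 and 9.71 CPM, with Umod and Lrp2 at 0, and liver markers at 3.05 and 0 CPM. In a whole gland, fewer cells of a type and less RNA per cell cannot be told apart.

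The 179 genes took 10137 reads in replicate 2, or 1.54% of the library (Wilson 95% interval 1.51 to 1.57%), and 11391 reads in replicate 1, or 1.38% (1.36 to 1.41%). The intervals do not overlap, and the mean was 1.46% ± 0.114 (SD, n = 2). The median gene had a mean of 37.2 CPM, against 33.4 CPM for the 9946 other protein-coding genes at that minimum. Mean levels were at least 100 CPM for 35 genes and under 10 CPM for 22, and the lowest, that of Slc22a21, was 4.10 CPM. The 10 most read genes held 39.0% ± 2.00 of the reads on the whole set (SD, n = 2).

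By family, Slc25 stood far above the rest. Its 36 genes at the minimum summed to 5407 CPM in replicate 2 and 5470 CPM in replicate 1, which was 37.3% of all solute carrier reads. Slc35, the nucleotide sugar transporters and their relatives, followed with 22 genes and 1185 ± 172 CPM (SD, n = 2, as for the other families). Slc27, the fatty acid transport proteins, reached 973 ± 157 CPM with only 4 genes. Slc39, zinc importers, had 893 ± 178 CPM over 9 genes, Slc1, transporters of acidic and neutral amino acids, had 568 ± 13.3 CPM over 3 genes, and Slc48, with the haem transporter Slc48a1 alone, had 466 ± 4.73 CPM. Between the libraries the ranges of Slc35 and Slc27 overlapped, as did those of Slc27 and Slc39, while Slc39, Slc1 and Slc48 lay apart. Within each library Slc35, Slc27 and Slc39 kept this order, at 1306, 1084 and 1019 CPM in replicate 2 and 1063, 863 and 767 CPM in replicate 1. The order of these 6 families was the same per kb. On annotated transcripts only, Slc27 averaged 615 CPM and stood below Slc39 (968 CPM) and Slc1 (672 CPM).

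**Figure D1:**
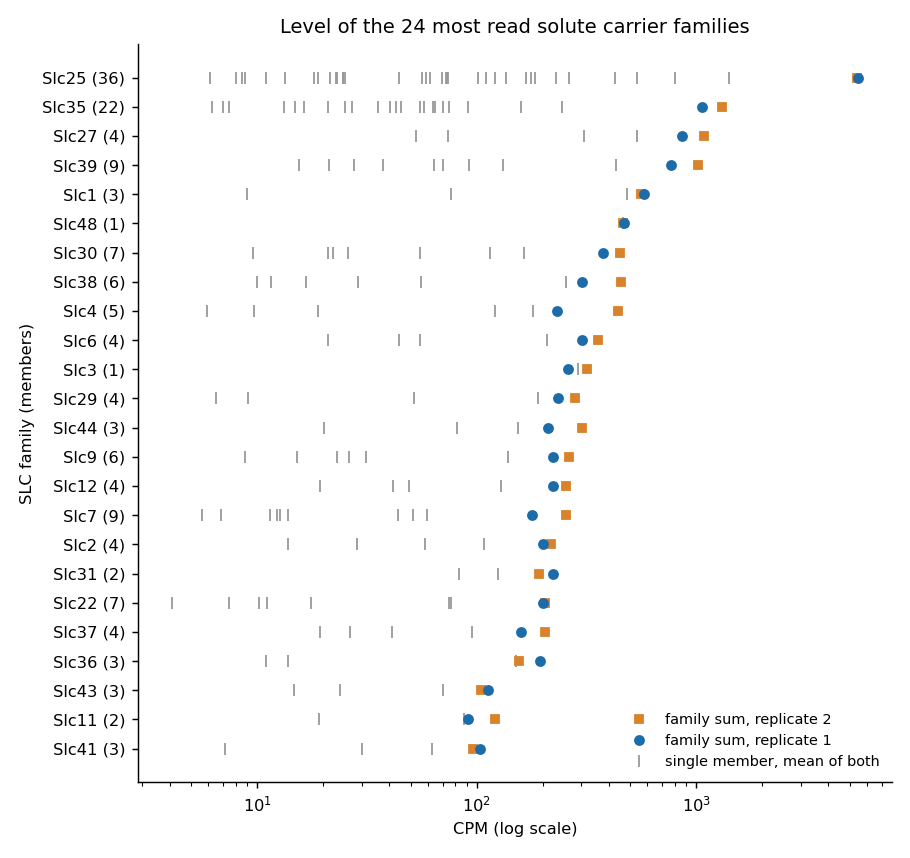
Summed CPM (log scale) of the 24 most read solute carrier families, squares for replicate 2 and circles for replicate 1, with grey ticks for the single genes of each family. Slc25 lies at 5407 CPM in replicate 2 and 5470 CPM in replicate 1, and Slc35, the next family, at 1306 and 1063 CPM.

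Below these came Slc30 (zinc exporters, 414 ± 54.7 CPM over 7 genes), Slc38 (379 ± 109 CPM over 6 genes), Slc4 (bicarbonate transporters, 336 ± 145 CPM over 5 genes) and Slc6 (329 ± 38.3 CPM over 4 genes). These neighbours overlapped within their spread. Slc4 was the family most uneven between the libraries among these, with 438 CPM in replicate 2 and 233 CPM in replicate 1. Per kb of annotated transcript it stood 19th of the 43 families instead of 9th. For Slc4a3, the most read of the family, the length used was 7182 nt. Annotated transcripts of Slc4a3 held only 1 read in replicate 2 and 0 in replicate 1. The most read new transcripts of Slc4a3 had 3331, 3861 and 3935 nt, so the place per kb rests on a length that was almost not read. The lowest families were Slc24 with 7.14 CPM and Slc28 with 4.71 CPM, each carried by 1 gene with 3 reads in replicate 2. Some families rested on 1 gene: Slc1a5 gave 85.0% of Slc1 and Slc36a2 gave 85.1% of Slc36. Slc25a3 gave 26.1% of Slc25.

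Grouped by the main substrate of their family, the 29 genes of amino acid families summed to 2069 ± 196 CPM and the 16 genes of zinc families to 1306 ± 233 CPM. The amino acid group also holds Slc3a2, a partner subunit, the serotonin transporter Slc6a4, and Slc7a6os, which carries the name of a neighbour. The glucose and hexose families reached 473 ± 46.0 CPM over 10 genes, among them the vitamin transporter Slc5a6. The 8 transporters of iron, manganese, copper and magnesium reached 429 ± 5.91 CPM, and the 7 genes of bicarbonate and other anion families, Slc4a1ap among them, 362 ± 151 CPM (SD, n = 2 each).

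The most read solute carrier was Slc25a3 (ENSMUSG00000061904.12, chr10:91116574-91124059, minus strand), which carries phosphate, and copper, into the mitochondrial matrix. It had 1006 reads (1532 CPM) in replicate 2 and 1072 reads (1301 CPM) in replicate 1, and it ranked 50 among all genes by mean CPM. Slc25a5 and Slc25a4, the ADP/ATP carriers that export ATP from mitochondria, had 665 and 475 CPM in replicate 2, against 929 and 601 CPM in replicate 1. Both were lower in replicate 2, while Slc25a3 was not. ADP/ATP carriers have close paralogs and processed copies in the genome, and the sources used here do not say how reads were shared among copies, so their levels carry that uncertainty. Slc25a39, which imports glutathione into mitochondria, had 420 CPM in replicate 2 and 431 CPM in replicate 1. Slc25a1, the citrate carrier, had 266 and 260 CPM. These 2 carriers were nearly level between the libraries.

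Further down the family, Slc25a20, the carnitine/acylcarnitine carrier of fatty acid oxidation, had 123 reads (187 CPM) in replicate 2 and 226 reads (274 CPM) in replicate 1. Slc25a11, the oxoglutarate carrier, had 195 CPM in replicate 2 and 176 CPM in replicate 1. The dicarboxylate carrier Slc25a10 had 196 CPM in replicate 2 and 140 CPM in replicate 1. Within the family the carriers thus went different ways between the libraries. Over the 30 mitochondrial carriers tested, 16 had a higher and 14 a lower level in replicate 2, and their log2 ratios had a median of 0.04.

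Among fatty acid genes, Slc27a1 (ENSMUSG00000031808.7, chr8:71568882-71587302, plus strand), a long-chain fatty acid transport protein, had 406 reads (618 CPM) in replicate 2 and 379 reads (460 CPM) in replicate 1. Slc27a3 had 340 CPM in replicate 2 and 274 CPM in replicate 1. Slc27a4 had 86.8 and 61.9 CPM, and Slc27a2, which also activates very-long-chain fatty acids, had 39.6 and 66.7 CPM in the same order. The first 3 were higher and Slc27a2 lower in replicate 2, and among these 4 genes the adjusted p was under 0.05 for Slc27a1 only.

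Among amino acid transporters, Slc1a5, a sodium-dependent exchanger of glutamine and other neutral amino acids, had 314 reads (478 CPM) in replicate 2 and 402 reads (488 CPM) in replicate 1. Slc3a2 had 320 and 261 CPM, and Slc38a10 had 312 and 200 CPM. The taurine transporter Slc6a6 had 228 CPM in replicate 2 and 189 CPM in replicate 1. Among these 4 genes Slc38a10 alone passed the exact binomial test between the libraries, with an adjusted p of 0.0059. The log2 ratios of Slc3a2 (0.19), Slc6a6 (0.17) and Slc1a5 (-0.13) did not pass. Of lower level, Slc1a3, a glutamate transporter, had 70.0 CPM in replicate 2 and 82.5 CPM in replicate 1. The proton-coupled transporter Slc36a2 had 122 and 181 CPM, and Slc1a4 had 10.7 and 7.28 CPM. Slc7a4, the most read of its family, averaged 59.1 CPM, and Slc43a3 averaged 70.4 CPM.

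Of metal transporters, Slc39a7, which releases zinc from the endoplasmic reticulum, had 323 reads (492 CPM) in replicate 2 and 308 reads (374 CPM) in replicate 1. Slc39a3 had 146 and 116 CPM, Slc39a11 had 99.0 and 86.1 CPM, and Slc39a13 had 79.2 and 61.9 CPM. Slc30a9 had 192 CPM in replicate 2 and 136 CPM in replicate 1. Each of these 5 was higher in replicate 2, none at an adjusted p under 0.05 in the test given further on. Over the 15 zinc transporters tested, 12 were higher and 3 lower in replicate 2, and none of the 15 passed it. Slc31a1, the copper importer, had 107 and 143 CPM, and Slc11a2, the iron importer of endosomes and gut, had 100.5 and 74.0 CPM in replicate 2 and replicate 1. The magnesium transporter gene Slc41a3 averaged 62.5 CPM. The haem transporter Slc48a1 had 304 reads (463 CPM) in replicate 2 and 387 reads (470 CPM) in replicate 1.

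Of the Slc35 family, Slc35a4 had 191 reads (291 CPM) in replicate 2 and 166 reads (201 CPM) in replicate 1. Slc35b2, which brings the sulphate donor PAPS into the Golgi, had 167 and 150 CPM. Slc35a1, the CMP-sialic acid transporter, had 114 and 67.9 CPM, and Slc35b1, an ATP/ADP exchanger of the endoplasmic reticulum, had 80.7 and 69.2 CPM. All 4 had higher levels in replicate 2, and none had an adjusted p under 0.05 in the test given further on.

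Among the other families, Slc29a1, an equilibrative nucleoside transporter, had 209 CPM in replicate 2 and 171 CPM in replicate 1. The chloride/bicarbonate exchanger Slc4a3 had 245 and 115 CPM, the widest relative gap of the 20 most read genes. The choline transporter Slc44a1 had 186 CPM in replicate 2 and 124 CPM in replicate 1. Slc12a4, a potassium-chloride cotransporter, had 132 and 125 CPM, and the scaffold gene Slc9a3r2 had 157 and 120 CPM. Slc2a4, the insulin-responsive glucose transporter, had 99.0 CPM in replicate 2 and 118 CPM in replicate 1. Slc22a5, which takes up carnitine, had 62.4 and 91.0 CPM, and Slc37a2 had 107 and 83.7 CPM. The folate carrier Slc19a1 had 56.3 CPM in replicate 2 and 43.7 CPM in replicate 1. The leading genes of other small families had means of 61.1 CPM for the folate transporter Slc46a1, 49.9 CPM for Slc45a3, 37.2 CPM for the lactate transporter Slc16a1, 30.9 CPM for Slc10a3 and 17.8 CPM for the anion exchanger Slc26a4.

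**Figure D2:**
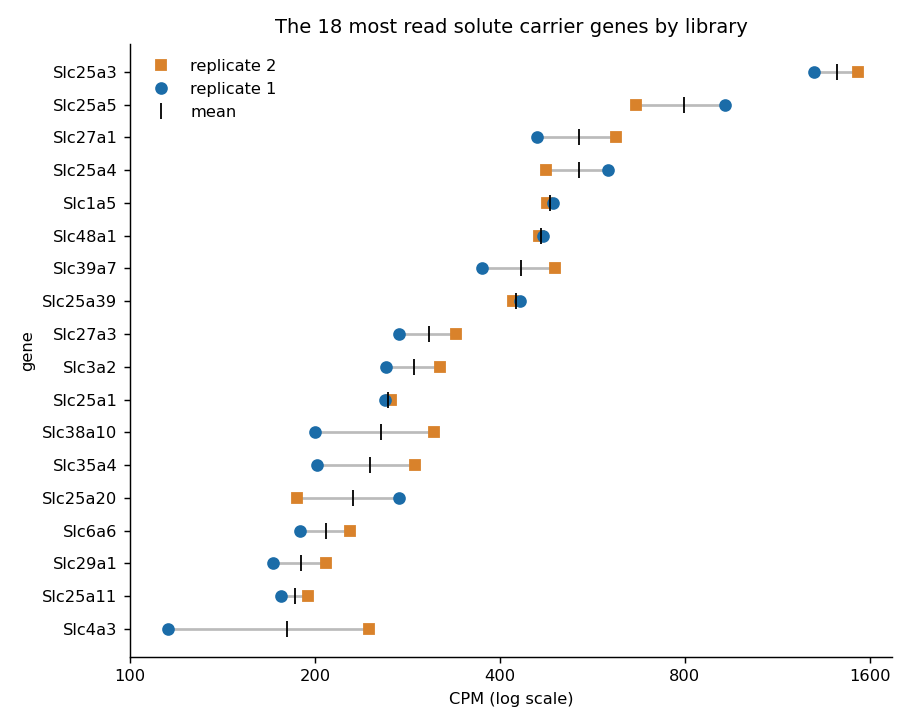
CPM (log scale) of the 18 most read solute carrier genes, squares for replicate 2, circles for replicate 1 and black ticks for their mean. Slc25a3 leads at 1532 CPM in replicate 2 and 1301 CPM in replicate 1, and Slc4a3 has the widest relative gap, 245 CPM against 115 CPM.

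Per kb of annotated transcript the order of the leading genes was Slc25a3 at 879 CPM per kb, Slc25a5 at 643, Slc25a4 at 279, Slc25a39 at 253 and Slc27a1 at 197 CPM per kb. Slc39a7, Slc48a1 and Slc1a5 followed at 187, 184 and 175 CPM per kb.

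The libraries were compared gene by gene with a two-sided exact binomial test on the reads, over the 8063 annotated genes with at least 20 reads in sum. Benjamini-Hochberg adjustment ran over all of them, and log2 ratios of replicate 2 over replicate 1 used TMM-scaled CPM plus a pseudocount of 1. The call rule asked for an adjusted p below 0.05 together with a change of at least 2-fold. Of all genes, 3.41% were called, 1.05% higher and 2.36% lower in replicate 2, and 3.36% of the 8059 that also had 3 reads in each library. Of the solute carriers 146 could be tested, 33 had too few reads, and 1 was called. The median log2 ratio was 0.12 over the solute carriers and 0.02 over the other protein-coding genes. The libraries are single samples of 1 group, so the calls compare these libraries only.

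The called gene was Slc25a30, a mitochondrial carrier. It had 52 reads (79.2 CPM) in replicate 2 and 28 reads (34.0 CPM) in replicate 1. The log2 ratio was 1.10, with an adjusted p of 0.010 in the exact binomial test. The ratio fell under 2-fold when genomic reads, those that TALON classed as unspliced or otherwise incompatible with annotated transcripts, were left out (0.94) or a length trend between the libraries was removed (0.92, with an adjusted p of 0.075). Its genomic reads numbered 5 in replicate 2 and 0 in replicate 1, against single-exon reads of any class of 5 and 3.

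At the adjusted p alone, which 11.1% of all genes passed, there were 11 solute carriers, 6 higher and 5 lower in replicate 2. Besides Slc25a30, the higher ones were Slc4a3 (log2 ratio 0.98, adjusted p 2.7e-06), Slc25a25 (0.89, 0.0021), Slc4a2 (0.62, 0.044), Slc38a10 (0.54, 0.0059) and Slc27a1 (0.33, 0.019). Slc25a25, a calcium-dependent ATP-Mg/phosphate carrier, had 97 reads in replicate 2 and 61 in replicate 1. Slc4a2, an anion exchanger, had 99 and 75 reads. Slc27a1, Slc38a10 and Slc4a2 lost the adjusted p under 0.05 when the length trend was removed, and Slc27a1 and Slc4a2 also with DESeq2 size factors. On annotated transcripts alone the log2 ratio of Slc27a1 was 0.01 and that of Slc38a10 was 0.23. The most read gene, Slc25a3, did not pass (0.14, exact binomial adjusted p 0.18). It did pass with library totals (0.24, 0.0036) and with the length trend removed (0.26, 0.0015). With DESeq2 size factors, without genomic reads or on annotated transcripts alone Slc25a3 did not pass. Slc39a7 and Slc35a4 passed with library totals (exact binomial adjusted p 0.0091 and 0.0076) and on annotated transcripts alone (0.015 and 0.0098). Neither of them passed in the test as reported or in the other settings. Slc35a1 passed with library totals only (exact binomial adjusted p 0.035).

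Among the 5 lower ones were Slc25a5 (log2 ratio -0.58, adjusted p 5.9e-10), Slc25a4 (-0.44, 0.00048), Slc25a20 (-0.65, 0.0011) and Slc36a2 (-0.67, 0.010), by the same exact test. The first 3 are mitochondrial carriers. The log2 ratio of Slc25a5 was -0.37 without genomic reads and -0.28 with the length trend removed. The fat cell markers were lower in replicate 2 at a median log2 ratio of -1.32 over 8 genes, 5 of them called, and connective tissue markers summed to 501 CPM in replicate 2 and 812 CPM in replicate 1. The part of these cells in the lower levels was not tested.

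Among the genes tested, those with at least 20 reads in sum, the largest ratios otherwise belonged to genes of few reads. Slc43a1, an amino acid transporter, had 5 reads in replicate 2 and 18 in replicate 1 (log2 ratio -1.50, exact binomial adjusted p 0.13). Slc23a2, a vitamin C transporter, had 8 and 20 reads (-1.03), of which single-exon models held 4 and 12. Slc39a9, a zinc transporter, had 25 and 14 reads (1.02), and Slc4a1ap had 17 and 10 reads (0.94). None of these 4 passed the adjusted p on all reads. Without genomic reads Slc39a9 passed at 2.37, but its single-exon reads, 12 in replicate 2 and 11 in replicate 1, carried the genomic class in replicate 1 alone (0 and 9 reads), so that setting takes them from 1 library.

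**Figure D3:**
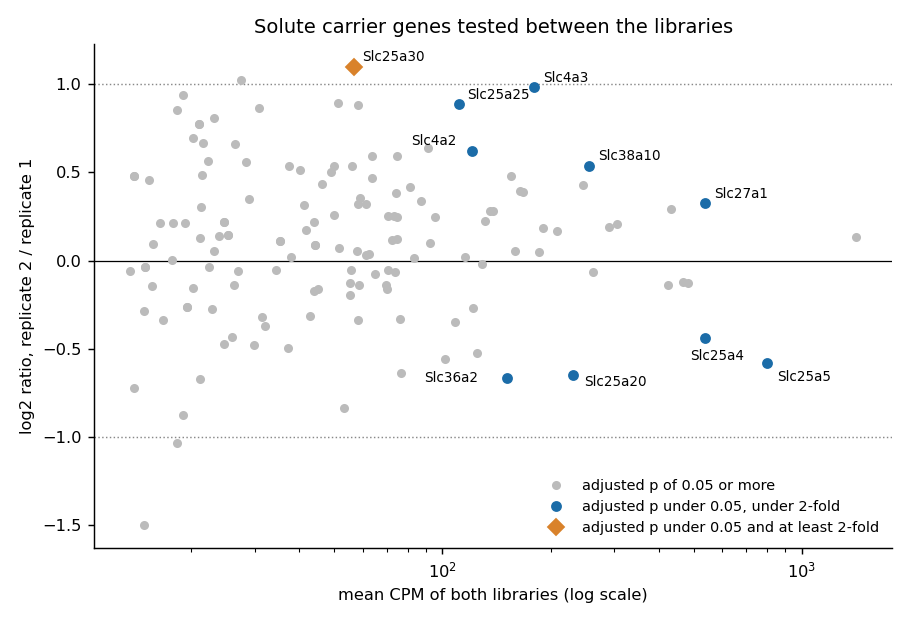
Log2 ratio of replicate 2 over replicate 1 against mean CPM (log scale) for the solute carrier genes tested, except 1 not shown, with dotted lines at 2-fold. The genes shown at an adjusted p under 0.05 are named, and Slc25a30 alone is past both thresholds at 1.10.

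For comparison, 38 transporters of other names and partner proteins were listed, of which 35 were read and 25 tested. Those called were 3, all lower in replicate 2. Ucp1, an Slc25 relative that uncouples respiration in brown fat, had 357 reads (544 CPM) in replicate 2 and 1268 reads (1538 CPM) in replicate 1 (log2 ratio -1.60). Ucp3 had 19 and 60 reads (-1.40), and Mpc2, a subunit of the mitochondrial pyruvate carrier, had 102 and 251 reads (-1.07). Its partner Mpc1 (-0.83), Bsg (-0.48) and Mtch2 (-0.43) passed the adjusted p alone. Ucp1 is also in the fat marker list. Those at 50 CPM or more on average included Bsg, the chaperone of lactate transporters, at 932 CPM, Mtch1 at 664, Letm1 at 281, Mtch2 at 263, Mpc2 at 230, Mpc1 at 197, Sfxn1 at 120, Tmem165 at 75.4, Slco3a1 at 74.8, Ucp2 at 71.3, Spns1 at 70.4, Sfxn3 at 64.9 and Ucp3 at 50.9 CPM, besides Ucp1.

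Each read was assigned by the authors to a transcript model, either an annotated one or a new one. New models join annotated splice sites in a new way (NIC), hold a new splice site (NNC), match part of an annotated transcript (ISM), or are unspliced or otherwise incompatible (genomic). Of solute carrier reads, 75.1% ± 0.601 were on annotated transcripts, against 79.6% ± 0.271 for the other protein-coding genes (SD, n = 2 each, as below). NIC reads made 8.02% ± 1.02 against 4.60% ± 0.949, and NNC reads 4.38% ± 0.505 against 3.64% ± 0.397. ISM reads made 8.03% ± 0.248 against 8.41% ± 0.0865, and genomic reads 4.49% ± 1.17 against 3.79% ± 0.988. In each library the solute carriers had the lower annotated share, 74.7% against 79.4% in replicate 2 and 75.5% against 79.7% in replicate 1. These shares pool the reads of all genes of a set, so genes with many reads weigh more. Much of the lower annotated share lay in Slc27a1 and Slc4a3. Annotated transcripts held 57 of 406 reads of Slc27a1 in replicate 2 and 67 of 379 in replicate 1. For Slc4a3 they held 1 of 161 and 0 of 95 reads. The shares were not computed without these genes. Slc27a1 held 113 NIC reads in replicate 2 and 150 in replicate 1, Slc4a3 held 81 and 52, and Slc38a10 held 76 and 53. Of reads on annotated transcripts, retained-intron transcripts took 1.38% ± 0.160 for solute carriers and 0.845% ± 0.0156 for the others. A large part of these reads lay on few genes. Slc1a5-202 held 41 in replicate 2 and 31 in replicate 1, and Slc25a22-221 held 5 and 18. The share is thus not a trait shared by the set, and it was not computed without these genes. The set also has longer transcripts, with a median annotated length of 3179 nt against 2727 nt, and the part of length in these shares was not tested.

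The most read transcript of each gene was followed in the 94 solute carriers with at least 20 reads in each library. It took a median of 73.2% of the gene's reads, against 78.9% over 5150 other protein-coding genes. It held at least 90% in 14 genes (14.9%, against 23.6% of the others; 31 of 89, or 34.8%, against 49.1% without ISM and genomic models) and less than 50% in 17 genes (18.1%, against 17.7%). Genes near a single form included Slc25a20, with Slc25a20-201 at 96.7% of reads in replicate 2 and 95.1% in replicate 1. Slc48a1-201 took 94.1% and 94.3%, and Slc27a2-201 took 96.2% and 96.4% in the same order. In 7 genes the most read transcript was not annotated (7.45%, against 7.05%): Slc27a1, Slc29a1, Slc4a3, Slc25a22, Slc8b1, Slc45a4 and Slc5a6.

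A two-sided Fisher's exact test compared the share of that transcript between the libraries. Over 5334 genes, 0.394% met the call rule, an adjusted p below 0.05 with shares that lie 10 or more percentage points apart, and 0.544% passed the adjusted p alone. Among the 94 solute carriers 2 were called. Slc25a5-201 took 356 of 437 reads (81.5%) in replicate 2 and 537 of 766 (70.1%) in replicate 1, with an adjusted Fisher's exact p of 0.0046. Single-exon genomic reads took most of the rest, 72 reads (16.5%) in replicate 2 and 220 (28.7%) in replicate 1. For Slc27a1, an incomplete model of 12 exons that lacks the 5′ exons took 130 of 406 reads (32.0%) in replicate 2 and 74 of 379 (19.5%) in replicate 1 (adjusted Fisher's exact p 0.017). Both calls thus rest on incomplete or genomic models, and with those models left out neither gene was called. Slc25a3-201 took 734 reads (73.0%) in replicate 2 and 856 (79.9%) in replicate 1, a difference under 10 points (adjusted Fisher's exact p 0.043).

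The most divided gene among those with at least 50 reads in each library was Slc4a3 (ENSMUSG00000006576.16, chromosome 1). Its most read transcript, a NIC, had 11 of 161 reads (6.83%) in replicate 2 and 14 of 95 (14.7%) in replicate 1, and 24 different transcripts were read in both libraries. Annotated transcripts held 1 read in replicate 2 and 0 in replicate 1. NIC transcripts held 81 and 52 reads, and ISM transcripts 54 and 32. So the level of this exchanger is spread over many forms, nearly none of them annotated.

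Slc27a1 was divided in a like way, with 42 transcripts read in both libraries. Its annotated Slc27a1-207 had 33 reads in replicate 2 and 43 in replicate 1. A NIC of 13 exons had 33 and 40 reads, and a NIC of 14 exons had 31 and 41 reads. Both NICs share 11 introns with Slc27a1-207 and differ at the first splice, and the longer one holds an extra exon of 91 nt. On annotated transcripts alone the sum of the Slc27 family was 615 CPM.

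In Slc29a1 the leading NIC had 30 reads (21.9%) in replicate 2 and 36 (25.5%) in replicate 1, and a second NIC had 14 and 18 reads. Both hold a 101-nt exon that Slc29a1-202 lacks. The annotated Slc29a1-202 had 13 and 17 reads, Slc29a1-204 had 14 and 15, and Slc29a1-201 had 13 and 12. In Slc25a22, a mitochondrial glutamate carrier, a NIC with another first splice had 31 reads (30.7%) in replicate 2 and 30 (30.9%) in replicate 1. Slc25a22-201 had 22 and 20 reads, and the retained-intron transcript Slc25a22-221 had 5 and 18 reads.

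Other divided genes kept an annotated leader. Slc11a2-201 took 37.9% of reads in replicate 2 and 27.9% in replicate 1, and Slc39a11-202 took 47.7% and 40.8%. Slc25a25-205 took 50.5% and 37.7%. Slc38a10-201 took 36.6% in replicate 2 and 52.1% in replicate 1, and Slc25a44-201, of a branched-chain amino acid carrier of mitochondria, took 55.4% and 35.1%. These last differences were 15.5 and 20.3 points, and neither had an adjusted p under 0.05. Slc35a4-206 took 49.2% and 45.2%, Slc39a3-202 took 51.0% and 46.9%, and Slc30a2-204 took 51.9% and 51.6%, all close between the libraries.

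**Figure D4:**
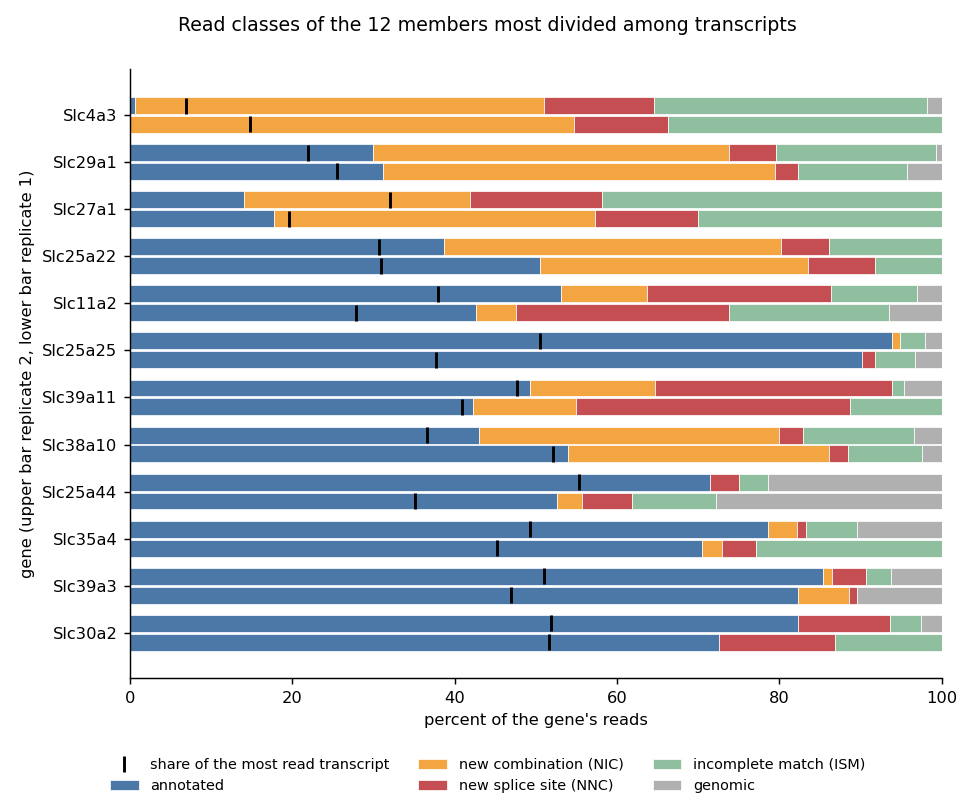
Share of each gene's reads (percent) by class of transcript model for the 12 genes whose most read transcript had the lowest share, upper bar replicate 2 and lower bar replicate 1, with a black tick at the share of that transcript. In Slc4a3 the annotated class holds 1 read in replicate 2 and none in replicate 1.

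Single-exon models made a visible part of some genes. In Slc6a6 they held 42 reads (28.0%) in replicate 2 and 53 (34.0%) in replicate 1, within the last exon. In Slc25a4 they held 19 and 57 reads, and in Slc25a44 12 and 27 reads. In Slc35a4 they held 20 reads in replicate 2 and 30 in replicate 1. The counts are not scaled, and the library of replicate 1 held more reads. As a share of the gene's reads, single-exon models were higher in replicate 1 in each of these 4 genes. The difference in this share was not tested.

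New spliced transcripts with at least 5 reads in each library numbered 29, of which 22 were NIC and 7 NNC, in 19 genes. Besides those of Slc27a1, Slc29a1 and Slc25a22, a NIC of Slc38a10 with another last splice had 23 reads in replicate 2 and 27 in replicate 1. An NNC of Slc39a11 with a new splice site had 18 reads (27.7%) in replicate 2 and 22 (31.0%) in replicate 1. In Slc45a4, a NIC of 8 exons held 21 reads (58.3%) in replicate 2 and 19 (61.3%) in replicate 1. In Slc5a6, a vitamin transporter for biotin and pantothenate, a NIC of 18 exons held 13 of 26 reads and 17 of 30. In Slc8b1, the sodium/calcium exchanger of mitochondria, a NIC that lacks 3 exons (333 nt) of Slc8b1-201 held 18 reads (35.3%) in replicate 2 and 11 (34.4%) in replicate 1. In Slc45a4, Slc5a6 and Slc8b1 the new form was the most read transcript of its gene.

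Slc25a3 has a pair of alternative exons of similar sequence, one in Slc25a3-201 and one in Slc25a3-206. In humans, the form with one of them is known from heart and skeletal muscle and that with the other from most tissues. The exon of Slc25a3-201 lies at chr10:91121922-91122043 (122 nt) and that of Slc25a3-206 at chr10:91122207-91122331 (125 nt), both on the minus strand of GRCm38 (mm10). They are shown because they set the forms of the most read solute carrier apart. Capitals mark bases equal in both when aligned without gaps after the first 3 bases of the longer exon, and 77 of 122 bases (63.1%) are equal.
Slc25a3-201 exon: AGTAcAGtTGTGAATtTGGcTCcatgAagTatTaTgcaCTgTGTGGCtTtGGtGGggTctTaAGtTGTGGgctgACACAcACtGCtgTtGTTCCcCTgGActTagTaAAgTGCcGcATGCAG
Slc25a3-206 exon: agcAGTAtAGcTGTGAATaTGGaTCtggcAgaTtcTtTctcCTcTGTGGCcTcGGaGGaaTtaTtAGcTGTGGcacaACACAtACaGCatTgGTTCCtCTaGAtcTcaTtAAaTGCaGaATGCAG
Of reads that show the choice, 903 of 925 held only the exon of Slc25a3-201 in replicate 2, and 992 of 1017 in replicate 1. Only the exon of Slc25a3-206 was in 4 reads (0.432%) in replicate 2 and 3 (0.295%) in replicate 1. Reads with both exons were 18 (1.95%) and 22 (2.16%), more in each library than those with the second exon alone. Most of these were on 1 NIC, with 14 reads in replicate 2 and 15 in replicate 1.

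Among the 47 solute carriers with at least 50 reads in each library, 12 had a pair of annotated coding transcripts each at 10% or more of the reads. In 8 of them the pair differs in coding sequence. In the other 4, Slc25a3, Slc39a7, Slc35a4 and Slc29a1, it encodes the same protein. Slc3a2-201, of 526 residues, had 156 reads in replicate 2 and 178 in replicate 1, and Slc3a2-202, of 565 residues with an earlier start, had 36 and 27 reads. Slc30a2-204 (371 residues) had 41 and 47 reads, and Slc30a2-201 (291 residues) had 22 and 18. Slc9a3r2-201 (337 residues) had 75 and 61 reads, and Slc9a3r2-202 (226 residues) had 12 and 12. In these 3 genes the same form led in both libraries.

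Slc44a1-205 (656 residues) had 64 reads in replicate 2 and 55 in replicate 1, and Slc44a1-201 (653 residues) had 37 and 31. The forms differ in their last coding bases, chr4:53565397-53565417 in Slc44a1-205 and chr4:53621595-53621606 in Slc44a1-201 (plus strand), shown in capitals after the 30 transcript bases before them, which both share.
Slc44a1-205: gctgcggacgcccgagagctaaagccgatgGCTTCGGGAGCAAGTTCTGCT
Slc44a1-201: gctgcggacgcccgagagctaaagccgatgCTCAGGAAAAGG
By the last intron, Slc44a1-201 held 41 of 117 reads (35.0%) in replicate 2 and 34 of 97 (35.1%) in replicate 1. The split of this choline transporter was nearly the same in both libraries.

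Slc11a2 is known for C-terminal forms that differ in an iron-responsive element of the mRNA. Slc11a2-201 (568 residues) had 25 reads in replicate 2 and 17 in replicate 1, and Slc11a2-205 (561 residues) had 10 and 9 reads. Their last coding bases lie at chr15:100389087-100389161 and chr15:100395216-100395269 (minus strand) and are in capitals, after 30 shared bases.
Slc11a2-201: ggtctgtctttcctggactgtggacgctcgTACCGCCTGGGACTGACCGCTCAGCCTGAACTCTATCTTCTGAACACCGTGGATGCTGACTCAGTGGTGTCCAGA
Slc11a2-205: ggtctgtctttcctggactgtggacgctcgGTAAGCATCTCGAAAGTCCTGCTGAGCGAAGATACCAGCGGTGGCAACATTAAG
Of this annotated pair, Slc11a2-201 led in both libraries, at 37.9% against 15.2% of reads in replicate 2 and 27.9% against 14.8% in replicate 1. An NNC of the gene had 9 reads (13.6%) in replicate 2 and 8 (13.1%) in replicate 1. Reads of all models were not sorted by last intron for this gene, so these shares do not give the full split of C-terminal forms.

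Slc25a25 was divided between forms with different starts. Slc25a25-205 (502 residues) had 49 reads in replicate 2 and 23 in replicate 1, and Slc25a25-203 (469 residues) had 40 and 31. Their first coding exons lie at chr2:32451067-32451324 and chr2:32423794-32423952 (minus strand). They are printed from the start codon in capitals, followed by the 15 bases of the next exon that both share.
Slc25a25-205: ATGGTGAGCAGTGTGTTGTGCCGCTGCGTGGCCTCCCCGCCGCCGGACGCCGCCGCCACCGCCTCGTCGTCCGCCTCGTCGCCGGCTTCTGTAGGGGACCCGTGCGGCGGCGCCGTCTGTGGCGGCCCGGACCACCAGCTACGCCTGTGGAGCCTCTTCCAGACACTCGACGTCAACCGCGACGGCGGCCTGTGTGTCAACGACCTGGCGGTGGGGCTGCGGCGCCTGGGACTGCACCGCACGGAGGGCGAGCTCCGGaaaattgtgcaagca
Slc25a25-203: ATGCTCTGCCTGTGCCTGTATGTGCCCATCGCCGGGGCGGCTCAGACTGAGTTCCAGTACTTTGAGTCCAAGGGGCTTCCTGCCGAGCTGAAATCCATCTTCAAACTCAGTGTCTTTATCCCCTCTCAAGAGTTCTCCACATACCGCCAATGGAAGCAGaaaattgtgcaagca
By the first intron, Slc25a25-203 held 42 of 91 reads (46.2%) in replicate 2 and 32 of 55 (58.2%) in replicate 1. So Slc25a25-205 led in replicate 2 and Slc25a25-203 in replicate 1, and the share of Slc25a25-205 did not have an adjusted p under 0.05.

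Internal annotated exons were followed where at least 20 reads held or skipped them in each library, 789 exons in 90 solute carriers. Mean inclusion was over 90% for 739 and under 10% for 32. The other 18 exons, of 11 genes, had a mean inclusion of 10 to 90%, and 17 of them differed by less than 10 points between the libraries. The exception was a 92-nt noncoding exon of Slc39a3, held by 22 of 23 reads (95.7%) in replicate 2 and 16 of 21 (76.2%) in replicate 1. In Slc27a1 the 91-nt noncoding exon was held by 36.8% of reads in replicate 2 and 38.1% in replicate 1, and a 107-nt version of it, with the same start, by 19 of 127 reads and 19 of 152 (12.5%). The 101-nt noncoding exon of Slc29a1 was held by 59.8% and 64.2%. These are exons of 5′ parts of the transcripts that do not code.

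Coding exons also varied. A 190-nt exon of Slc31a2, a relative of the copper importer, was held by 85.7% of reads in replicate 2 and 89.2% in replicate 1, and a 104-nt exon of Slc22a5 by 87.5% and 90.1%. A partly coding 172-nt exon of Slc44a2 was held by 14.8% and 13.5%. Neither length in Slc31a2 and Slc22a5 is a multiple of 3. Those whose length is, and which code throughout, were in Slc8b1, Slc39a13 and Slc7a10, and are printed in capitals with 15 transcript bases on each side.

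In Slc8b1 a stretch of 3 exons of 60, 131 and 142 nt was mostly skipped. The 60-nt exon (chr5:120523999-120524058, plus strand) was held by 18 of 48 reads (37.5%) in replicate 2 and 13 of 31 (41.9%) in replicate 1. An 81-nt exon further on (chr5:120530316-120530396) was held by 40 of 47 reads (85.1%) and 23 of 30 (76.7%). A 68-nt coding exon after it (chr5:120531081-120531148) had the same counts, and 68 is not a multiple of 3. The length of the 81-nt exon alone thus does not tell whether the frame was kept.
Slc8b1 60-nt exon: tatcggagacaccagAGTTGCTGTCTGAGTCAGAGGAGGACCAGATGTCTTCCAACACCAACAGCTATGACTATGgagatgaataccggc
Slc8b1 81-nt exon: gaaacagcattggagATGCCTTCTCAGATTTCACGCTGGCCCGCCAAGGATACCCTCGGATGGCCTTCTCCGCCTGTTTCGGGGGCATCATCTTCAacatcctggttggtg
In Slc39a13, a zinc transporter, a 102-nt exon (chr2:91064906-91065007, minus strand) was held by 45 of 50 reads in replicate 2 and 40 of 49 (81.6%) in replicate 1. In Slc7a10, a transporter of small neutral amino acids, a 150-nt exon (chr7:35199540-35199689, plus strand) was held by 24 of 28 reads (85.7%) and 25 of 29 (86.2%).
Slc39a13 102-nt exon: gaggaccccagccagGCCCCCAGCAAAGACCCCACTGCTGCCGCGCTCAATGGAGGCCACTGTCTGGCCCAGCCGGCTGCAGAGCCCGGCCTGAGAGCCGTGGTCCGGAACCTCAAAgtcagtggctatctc
Slc7a10 150-nt exon: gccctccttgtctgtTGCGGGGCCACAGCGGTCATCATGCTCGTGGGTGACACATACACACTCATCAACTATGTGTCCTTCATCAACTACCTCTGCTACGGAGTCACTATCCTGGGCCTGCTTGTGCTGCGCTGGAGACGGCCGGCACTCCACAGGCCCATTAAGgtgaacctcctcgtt
Both were held by most reads in both libraries, while the first exons of the stretch in Slc8b1 were held by fewer than those that skipped them.

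**Figure D5:**
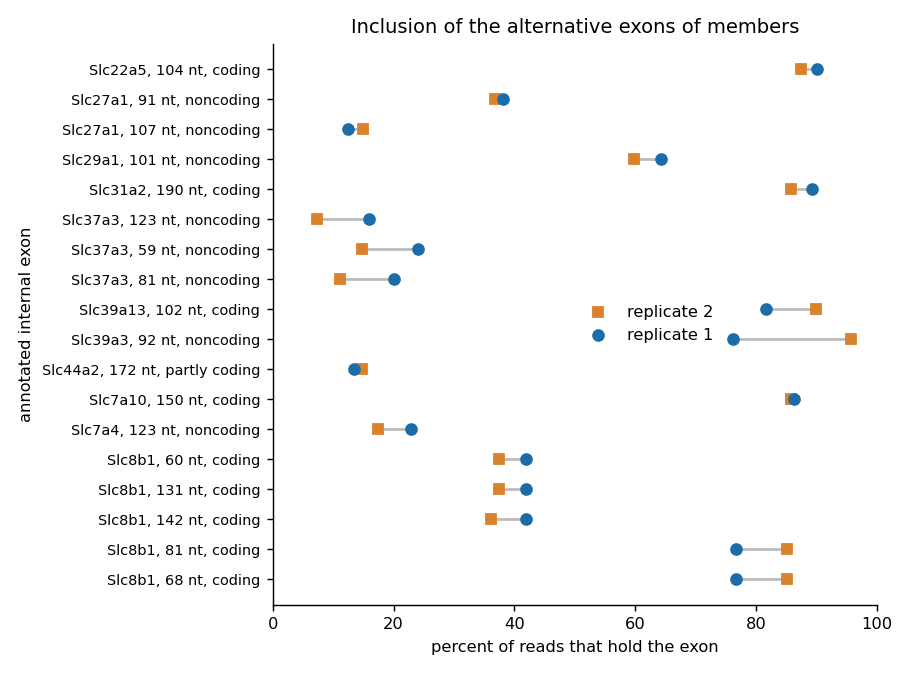
Share of reads (percent) that hold each of the 18 annotated internal exons of solute carriers with a mean inclusion of 10 to 90%, squares for replicate 2 and circles for replicate 1. The widest gap is the 92-nt exon of Slc39a3, at 95.7% in replicate 2 and 76.2% in replicate 1.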

How the data were processed

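The authors deposited counts of long reads per transcript model for 2 adrenal gland libraries, each with its own TALON transcript models (named in the source field of the deposited annotation), on mm10 with GENCODE M21, per the labels and the notes in the deposit. The deposited tables also give the number of exons and the length in nt of each model. Aligner, versions and strand setting: not given in the sources used here. New single-exon models were pooled per gene, and new spliced models were matched between the libraries by chromosome, strand and introns. Gene bounds, coding parts and printed sequences come from GENCODE M21 (GRCm38). ERCC spike-ins were left out of library totals (5196 reads, 0.785%, in replicate 2 and 5770, 0.695%, in replicate 1); a further spike-in set named in the labels was not used here. Gene counts are sums over all model classes. Scaling used edgeR 4.0.16 TMM factors, with DESeq2 1.42.0 size factors and library totals as alternatives. Tests ran in Python 3.11.15 with scipy 1.17.1: a two-sided exact binomial test per gene with at least 20 reads in sum, and Fisher's exact test of the most read transcript with at least 20 reads in each library, each with Benjamini-Hochberg adjustment over all genes tested. With 1 group of libraries, edgeR's quasi-likelihood test had no contrast to fit. The tests were also run on simulated counts with large changes put in and counting error only. That run cannot show how the tests behave under other variation between libraries. Intervals are Wilson intervals at 95% and cover counting error only.

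Named are the 20 genes of highest mean CPM, the leading genes of families, the called genes, the 6 largest ratios, the 12 genes of lowest leading transcript share and those led by a new transcript, the 8 most read new transcripts and the most read alternative exons, and transporters of other names at 50 CPM or more. Of the genes this rule names, some are not reported here. The coding and exon pairs, the printed sequences, Slc5a6, Slc8b1, Slc6a6 and the genes near a single form were chosen after their values were seen. The genes, lists and tests were chosen with earlier results of these data known.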

Additional observations from a re-analysis of the deposited data

Results flagged for a closer look

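Reads of new loci on the strand opposite a solute carrier gene are in none of the comparisons, and they exceeded 3 reads, the limit that a count of 0 allows, in both libraries at 7 genes. Slc38a11 had 12 such reads in replicate 2 and 20 in replicate 1, beside 10 and 15 reads of its own, so the opposite strand held the more. Slc39a1 had 12 and 18, beside 52 and 40 of its own, and Slc25a37, an iron carrier of mitochondria, had 5 and 10, beside 6 and 7. Slc25a30 had 7 in replicate 2 and 12 in replicate 1, beside 52 and 28 of its own. Slc25a3 had 8 and 20, Slc11a2 had 4 and 5, and Slc6a6 had 7 and 4. Over all 179 genes there were 166 such reads in replicate 2 and 220 in replicate 1, and 88 genes had 0 in both. The sources used here do not say how strand was set, and its part in these reads was not tested.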

How the results depend on the processing

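No paired analysis was possible because the libraries form 1 group. The binomial and Fisher's exact tests cannot be run without a replicate. The 1 called gene became 2 with library totals in place of TMM (Slc4a3, log2 ratio 1.08, was added). It became 2 on annotated transcripts only, where Slc7a5 was added (log2 ratio 1.07). Without genomic reads 1 gene was called, but it was Slc39a9 (2.37) in place of Slc25a30 (0.94). The count was 0 with the length trend removed, where 27 had an unadjusted p under 0.05 in the exact binomial test, against 29 in the test as reported. It was 11 where 2-fold was not asked for. Against TMM, library totals shifted the median log2 ratio of all genes by 0.10 and DESeq2 size factors by -0.05. The 2 calls for transcript usage became 0 without ISM and genomic models (5 at unadjusted p under 0.05, Fisher's exact test; 11 in the test as reported). The count of genes with a transcript at 90% or more, 14 of 94, was 31 of 89 without those models and 8 of 47 at 50 reads in each library, where fewer genes qualify, and 14 to 16 with 1 replicate left out. The share of reads on solute carriers was 1.38 to 1.54% with 1 replicate left out. A minimum of 1, 5 or 10 reads in place of 3 gave 207, 165 or 138 genes. Slc25 summed to 5301 CPM without genomic reads and 5873 CPM on annotated transcripts only, and remained first. Of the 146 genes tested, 7 to 16 changed the sign of their log2 ratio under these scalings and read classes, and none of those was at an adjusted p under 0.05. Slc27 fell to the fifth place among families on annotated transcripts only. Depth limits what can be said of genes near 3 reads.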
